A study of Mus musculus with 8 samples.

Results

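Genes of the extracellular matrix and of its remodelling were examined in the liver of aged obese female mice. The list held 48 genes, chosen by name and grouped here by role: collagens, laminins and other basement membrane glycoproteins, small leucine-rich proteoglycans, elastic fibre and other glycoproteins, proteases, protease inhibitors, crosslinking enzymes, and the growth factor Tgfb1 with the receptor Pdgfrb. All 48 symbols matched 1 row each among the 56884 genes of the deposited count tables.

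All mice were C57BL/6J females raised from 2 months of age on a high-fat diet (45% lipids, 35% carbohydrates and 20% proteins by energy) for 4 months. The DIO group (n = 3, replicates 1, 4 and 5) then stayed on this diet until 18 months of age. In the DIO + DHA group (n = 5, replicates 1, 2, 4, 5 and 6), a fish oil concentrate with 683.4 mg of docosahexaenoic acid (DHA) and 46.7 mg of eicosapentaenoic acid per g replaced 15% by weight of the lipids over the same period. The study added the tocopherols of the concentrate to the DIO diet as well, and no group on a standard diet was analysed here. The mice were killed after an overnight fast, the sequenced mice were part of a larger cohort, the outcomes were not assessed blind, and the labels put all 8 libraries, 1 per mouse, in 1 batch.

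The extracellular matrix is the mesh of collagens, glycoproteins and proteoglycans around cells. In the liver, stellate cells in the space between hepatocytes and sinusoids, and fibroblasts of the portal tracts, are known as the main makers of fibrillar collagen, and an excess of it is what pathologists call fibrosis. Hepatocytes themselves secrete matrix and plasma glycoproteins such as fibronectin. Metalloproteinases cut matrix proteins, tissue inhibitors of metalloproteinases (TIMPs) block them, and lysyl oxidases crosslink collagen and elastin. Transforming growth factor beta (TGF-beta) is the best known inducer of matrix genes.

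Library totals ran from 1723800 counts (DIO replicate 1) to 5690347, with 4495644 as the median. Expression is given as CPM, the counts of a gene relative to its library's total after TMM scaling. Because the protocol enriched 3′ ends, CPM were not divided by length and are not compared between genes. Genes were left out of the test where both groups had counts under 5 in over 50% of their libraries, and 12412 genes remained. A gene was called when edgeR's quasi-likelihood test gave a Benjamini-Hochberg adjusted p under 0.05 over all of them. Fold changes are on the log2 scale, DIO + DHA minus DIO, with their standard error (SE).

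The libraries of the groups also differed in marker genes of other cell types and tissues. Albumin and 9 other hepatocyte markers summed to 130900 to 139800 CPM in the DIO libraries and 136000 to 147000 CPM in the DIO + DHA libraries, with 3 of the 10 called higher and 3 lower. The 16 skeletal muscle markers summed to 39.04 to 44.44 CPM in the DIO libraries and 1457 to 1573 CPM in the DIO + DHA libraries. All 16 were called higher, though some, such as Actn3 and Atp2a1, entered the test only through the DIO + DHA group. Of 12 markers of stratified squamous epithelium, 9 had a count of 0 in every DIO library, and the list without Perp, which both groups expressed, summed to 0 to 0.361 CPM against 50.9 to 54.8 CPM (152 to 167 CPM against 233 to 253 CPM with it). The 8 adipocyte markers summed to 34.9 to 41.1 CPM against 132 to 166 CPM, with Plin1 and Lep at 0 in the DIO libraries. All 5 DIO + DHA libraries showed these higher sums, so no comparison without them could be made.

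Markers of the cells known to make liver matrix moved as well. The 14 stellate cell markers summed to 184 to 191 CPM in the DIO libraries and 160 to 175 CPM in the DIO + DHA libraries, with 4 called lower (Lrat, Cygb, Rgs5 and Colec11) and 1 called higher (Des, which muscle also expresses). The 10 portal fibroblast markers summed to 39.1 to 52.5 CPM against 87.7 to 96.2 CPM, with Gsn and Fbln2 called higher. Fbln2 entered the test only through the DIO + DHA group, where it was higher. Gsn alone, at 31.55 to 41.17 CPM against 70.82 to 80.43 CPM, made up most of both sums. The 10 markers of smooth muscle and myofibroblasts summed to 11.5 to 13.9 CPM against 36.8 to 52.2 CPM, with 5 called higher. Of these, Actg2 and Synpo2 entered the test only through the DIO + DHA group, where they were higher. Des, also among them, is on the skeletal muscle list too. The 12 sinusoidal endothelial markers summed to 263 to 280 CPM against 201 to 235 CPM, with 2 called lower. The 12 markers of Kupffer cells and macrophages summed to 870 to 974 CPM against 502 to 537 CPM, with 10 called lower and 1 called higher. Sums of the 9 cholangiocyte markers, 65.1 to 72.6 CPM and 65.8 to 82.1 CPM, overlapped between the groups, with Sox9 called higher. The 7 mesothelium markers summed to 2.13 to 3.25 CPM and 3.93 to 5.36 CPM, with Msln, Upk3b and Upk1b at 0 in the DIO libraries. In bulk tissue, fewer cells of a type and less RNA per cell cannot be told apart, and the part that these shifts have in the results on matrix genes was not tested.

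**Figure D1:**
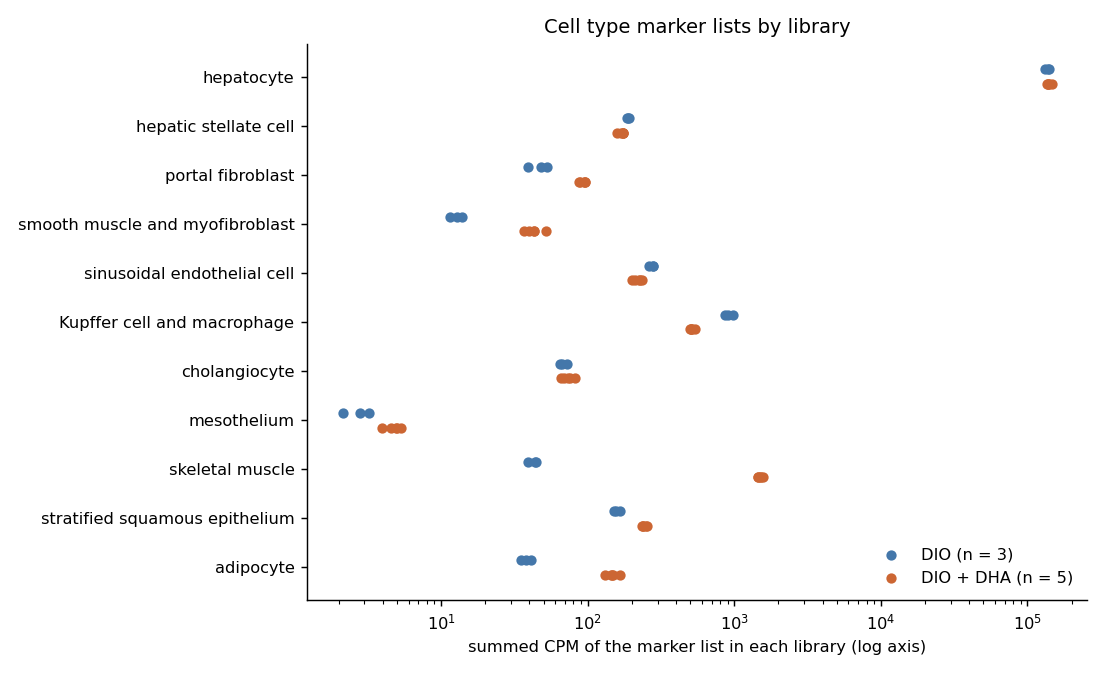
Summed CPM of 11 lists of cell type markers in each library, on a log axis. Blue points are the 3 DIO libraries and orange points the 5 DIO + DHA libraries. The skeletal muscle list lies at 39.04 to 44.44 CPM in DIO and 1457 to 1573 CPM in DIO + DHA libraries, and the stellate cell list at 184 to 191 CPM and 160 to 175 CPM.

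Most matrix genes were not called. Of the 48 genes, 44 passed the filter, 1 was called higher in the DIO + DHA group (Spon2) and 5 were called lower (Fn1, Tgfbi, Col14a1, Bgn and Timp1). The 6 calls are 13.6% of the 44 tested matrix genes, against 15.2% of all tested genes. By direction, 7.89% of all tested genes were called higher and 7.28% lower. The 44 genes had a median log2 fold change of -0.11, with 28 values below 0 and 16 above, against a median of 0.00 over all tested genes. Timp1, Timp3, Loxl2, Col6a3 and Col15a1, all below 0, passed the filter only through the DIO group. Fbln1 and Ecm2, both above 0, passed it only through the DIO + DHA group. Their median absolute log2 fold change was 0.28, against 0.22 over all tested genes. In 9 of the 44 genes the libraries of the groups did not overlap, a share close to the 18.4% of all tested genes. Of the 9, 8 (Col6a3, Col14a1, Dcn, Bgn, Fn1, Efemp1, Tgfbi and Timp1) were lower in the DIO + DHA group. The split by direction over all tested genes without overlap was not counted. Of these, Timp1 and Col6a3 passed the filter only through the DIO group, where they were higher.

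**Figure D2:**
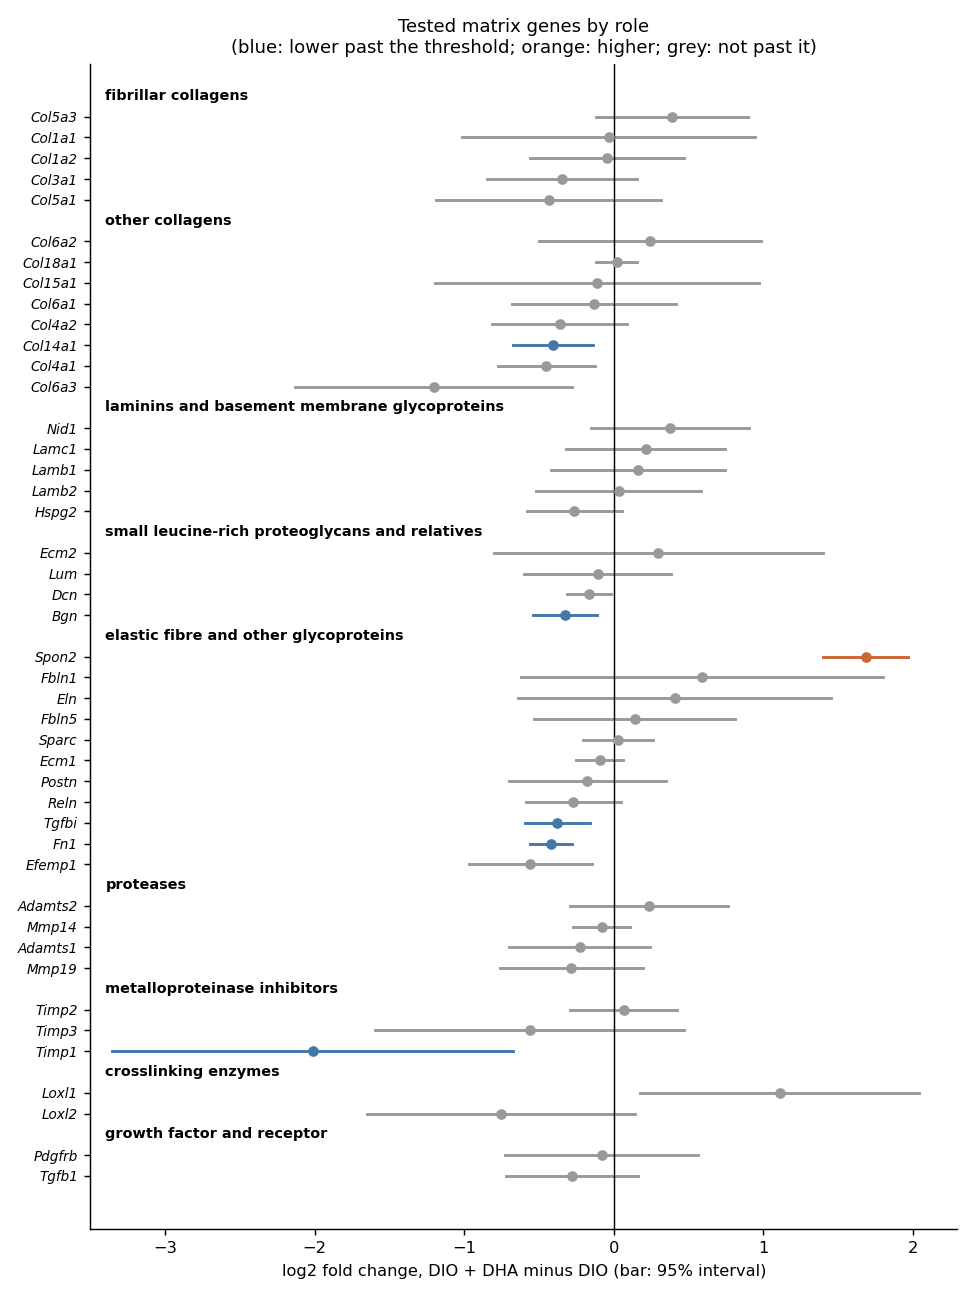
Log2 fold change of the 44 tested matrix genes, DIO + DHA minus DIO, by role, with points for the edgeR estimate and bars for its 95% interval. Blue marks the 5 genes called lower, orange the 1 called higher and grey the 38 not called. The widest intervals belong to genes with few counts, such as Timp1.

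Summed over the list, matrix genes took 1614 to 1654 CPM of the DIO libraries and 1465 to 1506 CPM of the DIO + DHA libraries. These sums did not overlap, but they include Fn1, at 338 to 383 CPM against 258 to 295 CPM. A sum of the whole list without Fn1 was not made, so a lower level of the other genes together cannot be read from it. The glycoproteins summed to 658 to 679 CPM against 552 to 599 CPM. Without Fn1, the 10 others summed to 285 to 330 CPM against 294 to 315 CPM, with overlap. These 10 include Spon2, which went the other way, at 9.001 to 11.5 CPM against 33.3 to 36.2 CPM. Its rise can hide lower values of the others in this sum, and a sum without both genes was not made. The small leucine-rich proteoglycans summed to 245 to 266 CPM against 215 to 237 CPM. Fibrillar collagens summed to 21.1 to 24.9 CPM in the DIO libraries and 16.4 to 23.2 CPM in the DIO + DHA libraries, with overlap. The other collagens, with sums of 527 ± 20.4 CPM (SD, n = 3) and 515 ± 18.1 CPM (SD, n = 5), overlapped as well.

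Among glycoproteins, Fn1 was lower and Spon2 higher, each in every DIO + DHA library. Fn1 encodes fibronectin, which hepatocytes secrete into plasma and which cells also lay down as fibrils that bind integrins and collagen. The gene (ENSMUSG00000026193.16, GRCm39 chr1:71624679-71692359, minus strand) had 372, 383 and 338 CPM in DIO replicates 1, 4 and 5. In DIO + DHA replicates 1, 2, 4, 5 and 6 it had 258, 276, 269, 295 and 264 CPM. The highest treated library thus stayed below the lowest control library. Means with SD were 364 ± 23.5 and 272 ± 14.3 CPM (n = 3 and 5), and the log2 fold change was -0.42 (SE 0.07, 95% interval -0.56 to -0.28, edgeR adjusted p = 4.7e-06). Fn1 shared 2.5% of its exon bases with an antisense long non-coding RNA, where unstranded counting left reads out, and none of its last 500 exon bases at the 3′ end.

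Spon2 encodes spondin 2, a secreted matrix protein known as a pattern recognition molecule for bacterial products and as an integrin ligand. The gene (ENSMUSG00000037379.8, GRCm39 chr5:33355528-33375799, minus strand) had 9.001, 10.8 and 11.5 CPM in the DIO libraries. The DIO + DHA libraries had 35.9, 33.5, 35.0, 33.3 and 36.2 CPM, a narrow range far above the controls. Means with SD were 10.4 ± 1.31 and 34.8 ± 1.36 CPM (n = 3 and 5), and the log2 fold change was 1.69 (SE 0.14, 95% interval 1.40 to 1.97, edgeR adjusted p = 1.8e-14), or 3.22-fold. It was the largest rise among the 44 tested matrix genes. The muscle, squamous, adipocyte, portal fibroblast and smooth muscle marker sums were higher in the same 5 libraries, and their part in the level of Spon2 was not tested.

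**Figure D3:**
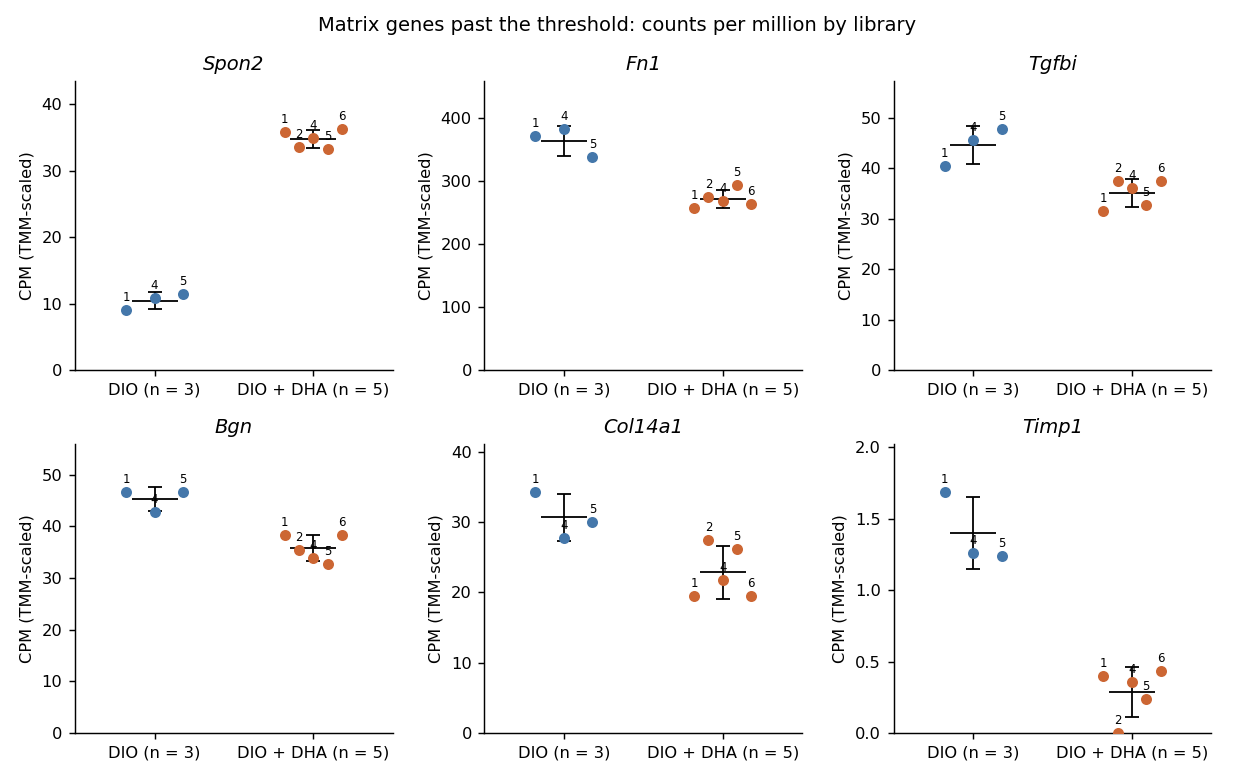
CPM of the 6 called matrix genes in each library, with a linear axis from 0 in each panel. Points carry the replicate number, blue for DIO and orange for DIO + DHA, and the black line and bars give the mean and SD. Spon2 lies at 9.001 to 11.5 CPM in DIO and 33.3 to 36.2 CPM in DIO + DHA libraries, and the 5 other genes lie lower in every DIO + DHA library than in any DIO library.

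Tgfbi encodes TGF-beta induced protein, a secreted protein that binds collagen and integrins. The gene (ENSMUSG00000035493.11, GRCm39 chr13:56757336-56787375, plus strand) had 40.5, 45.6 and 47.7 CPM in the DIO libraries. In the DIO + DHA libraries it had 31.5, 37.5, 36.0, 32.8 and 37.6 CPM, all below the controls. The log2 fold change was -0.38 (SE 0.11, edgeR adjusted p = 0.00986), with means and SDs of 44.6 ± 3.72 and 35.1 ± 2.78 CPM (n = 3 and 5). The call was lost without DIO replicate 4 (adjusted p = 0.0592) or DIO replicate 5 (adjusted p = 0.107), and over all alternatives the edgeR, DESeq2 and limma adjusted p ranged from 0.0048 to 0.11.

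The other 8 glycoproteins were not called. Ecm1, extracellular matrix protein 1, had 161, 166 and 193 CPM in the DIO libraries and 162, 158, 158, 180 and 159 CPM in the DIO + DHA libraries. The groups overlapped, with a log2 fold change of -0.09 (95% interval -0.25 to 0.06). Sparc, which binds collagen and calcium, had 33.2 to 37.1 CPM and 27.9 to 40.0 CPM (log2 fold change 0.03, 95% interval -0.21 to 0.26). Both intervals stayed within 0.5 of 0. Of the last 500 exon bases of Ecm1, 12.6% were shared with a microRNA gene, where reads were left out. Reln, the secreted glycoprotein reelin that stellate cells express in liver, had 16.9 to 20.4 CPM and 12.5 to 18.8 CPM (log2 fold change -0.27, 95% interval -0.59 to 0.05).

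Efemp1, a fibulin, had 16.3, 10.1 and 9.76 CPM in the DIO libraries and 7.74, 7.37, 8.56, 5.39 and 8.73 CPM in the DIO + DHA libraries. Its libraries did not overlap, but its adjusted p missed the threshold (log2 fold change -0.56, SE 0.21, edgeR adjusted p = 0.0583). Periostin (Postn), a matrix protein of activated fibroblasts, had 2.81 to 7.28 CPM and 2.98 to 7.42 CPM. The elastic fibre genes Eln (elastin), Fbln1 and Fbln5 (fibulins) were measured with 0 to 21 counts a library, and their log2 fold changes of 0.41, 0.59 and 0.14 had SEs of 0.52, 0.60 and 0.34.

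Of 4 small leucine-rich proteoglycans and relatives, Bgn was lower and the 3 others were not called. Bgn encodes biglycan, which binds collagen fibrils and, when released, can act on Toll-like receptors. The gene (ENSMUSG00000031375.18, GRCm39 chrX:72527208-72539539, plus strand) had 46.7, 42.7 and 46.7 CPM in the DIO libraries. It had 38.3, 35.5, 33.9, 32.8 and 38.4 CPM in the DIO + DHA libraries, all lower. Means with SD were 45.4 ± 2.28 and 35.8 ± 2.54 CPM (n = 3 and 5), for a log2 fold change of -0.33 (SE 0.11, edgeR adjusted p = 0.0266). Without DIO replicate 1, DIO replicate 5 or DIO + DHA replicate 5 the adjusted p was 0.0675, 0.164 and 0.0615, and it ranged from 0.015 to 0.16 over all alternatives.

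Dcn encodes decorin, which binds collagen fibrils and TGF-beta. It had 209, 196 and 204 CPM in the DIO libraries and 169, 178, 185, 180 and 190 CPM in the DIO + DHA libraries. The groups did not overlap, yet the difference was small and not called (log2 fold change -0.17, 95% interval -0.31 to -0.02, edgeR adjusted p = 0.125). Lumican (Lum), which lies 46984 bases from Dcn on chromosome 10 on the same strand with no protein-coding gene between them, had 5.59 to 7.88 CPM and 4.02 to 6.99 CPM (log2 fold change -0.11, SE 0.24). Ecm2 had 0.721 to 2.25 CPM and 0.468 to 1.78 CPM, too few counts for a difference of this size to be seen.

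Of 14 collagen genes, 13 were tested, 1 was called lower (Col14a1) and none higher. This is 7.69% of the tested collagens, against 15.2% of all tested genes called either way and 7.28% called lower. By sign, 10 of the 13 fitted values were below 0, against 6190 of all 12412 tested genes. Col6a3 and Col15a1, both among these 10, passed the filter only through the DIO group. Type I collagen, the main fibrillar collagen of scar tissue, is built from the products of Col1a1 and Col1a2. Col1a1 had 2 to 9 counts a library, or 1.13, 1.08 and 1.597 CPM in the DIO libraries and 0.793, 1.68, 1.43, 1.17 and 1.53 CPM in the DIO + DHA libraries. Its log2 fold change of -0.03 had a 95% interval from -1.01 to 0.95, and smaller changes in either direction were not detectable at this depth. Col1a2 had 7.31, 9.20 and 3.90 CPM and 8.73, 6.03, 4.995, 7.26 and 4.59 CPM (log2 fold change -0.05, 95% interval -0.56 to 0.47). Libraries of both groups were mixed in order for both genes.

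Col3a1, the chain of type III collagen, had 7.31, 7.21 and 4.97 CPM in the DIO libraries and 5.36, 5.03, 3.21, 5.62 and 5.02 CPM in the DIO + DHA libraries. The groups overlapped (log2 fold change -0.34, 95% interval -0.84 to 0.16, edgeR adjusted p = 0.425). Type V collagen, which controls fibril width, gave values on either side of 0, with -0.43 (SE 0.38) for Col5a1 and 0.39 (SE 0.25) for Col5a3. Col5a2, which lies 24614 bases from Col3a1 on chromosome 1, had 1 to 10 counts a library and did not pass the filter.

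Of the 8 network, fibril-associated and basement membrane collagens, 6 had fitted values below 0 and 2 above (Col6a2 and Col18a1), with a median of -0.25. The 6 include Col6a3 and Col15a1, which passed the filter only through the DIO group. Of the 8, 1 was called, or 12.5%, against 15.2% of all tested genes. Col14a1, the chain of a collagen that binds to the surface of fibrils, (ENSMUSG00000022371.17, GRCm39 chr15:55171146-55384199, plus strand) had 34.3, 27.8 and 30.0 CPM in the DIO libraries. It had 19.4, 27.5, 21.8, 26.2 and 19.4 CPM in the DIO + DHA libraries. The highest of these lay just under the lowest control. The log2 fold change was -0.41 (SE 0.13, edgeR adjusted p = 0.0282), with means and SDs of 30.7 ± 3.33 and 22.9 ± 3.79 CPM (n = 3 and 5). Without DIO replicate 1, DIO replicate 5, DIO + DHA replicate 1 or DIO + DHA replicate 6 the adjusted p was 0.1, 0.106, 0.1 and 0.0687, and it ranged from 0.013 to 0.11 over all alternatives. Col18a1 encodes the basement membrane collagen from which endostatin is cut, and hepatocytes are known to express it. It had 431, 449 and 487 CPM in the DIO libraries and 490, 435, 452, 459 and 477 CPM in the DIO + DHA libraries. The log2 fold change of 0.02 had a 95% interval from -0.12 to 0.15.

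Type IV collagen forms the sheet of basement membranes, and its common form is built from the products of Col4a1 and Col4a2. The 2 genes lie head to head on chromosome 8 and shared 22 bases at their starts (GRCm39 chr8:11362805-11362826). Col4a1 had 23.1, 19.5 and 15.3 CPM in the DIO libraries and 16.1, 13.1, 14.6, 11.5 and 12.2 CPM in the DIO + DHA libraries. Replicate 1 of the DIO + DHA group lay above DIO replicate 5, and the test missed the threshold narrowly (log2 fold change -0.45, 95% interval -0.78 to -0.12, edgeR adjusted p = 0.0507). Col4a2 had 7.81 to 14.1 CPM and 5.24 to 9.05 CPM (log2 fold change -0.36, SE 0.23). Values of both partners were thus below 0, and neither passed the test.

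Type VI collagen, a beaded filament collagen, is assembled from 3 chains. Col6a1 had 4.50 to 4.79 CPM and 2.98 to 5.02 CPM (log2 fold change -0.13, SE 0.27), and Col6a2, its neighbour at 85161 bases on chromosome 10, had 1.24 to 3.94 CPM and 1.64 to 3.97 CPM (log2 fold change 0.24, SE 0.37). Col6a3 had 3.38, 1.44 and 2.66 CPM against 0.793, 1.34, 1.07, 0.703 and 1.09 CPM, with no overlap but only 3 to 15 counts a library (log2 fold change -1.20, SE 0.46, edgeR adjusted p = 0.0707). The 3 chains did not share a sign. Col15a1, a basement membrane collagen, had 1 to 8 counts a library and a log2 fold change of -0.11 (SE 0.54).

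**Figure D4:**
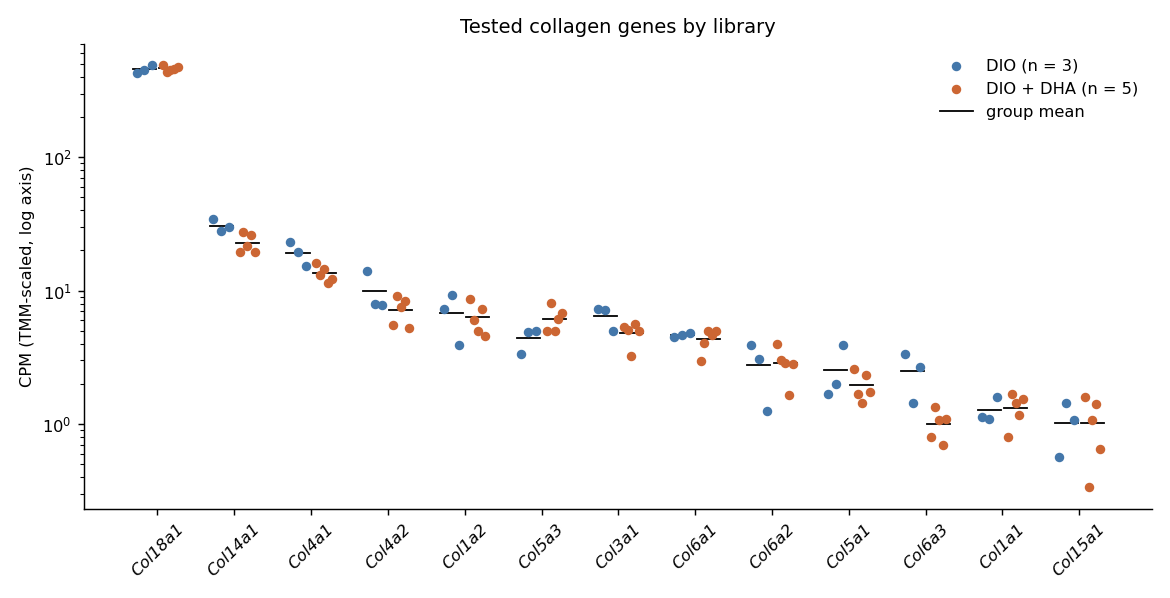
CPM of the 13 tested collagen genes in each library, on a log axis, ordered by mean. Blue points are DIO libraries, orange points DIO + DHA libraries, and black lines the group means. Col18a1 lies at 431 to 490 CPM in all 8 libraries, Col14a1 and Col6a3 are lower in every DIO + DHA library, and Col1a1 stays between 0.793 and 1.68 CPM.

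Of 6 laminin and basement membrane genes, 5 were tested and 0 were called at an adjusted p under 0.05, and none had an unadjusted edgeR p under that value or was called by DESeq2 or limma-voom. Hspg2, the heparan sulfate proteoglycan perlecan, had 21.9, 15.9 and 17.4 CPM in the DIO libraries and 15.9, 12.1, 16.1, 13.1 and 15.9 CPM in the DIO + DHA libraries, with overlap (log2 fold change -0.26, SE 0.16). The laminin chains Lamb1, Lamb2 and Lamc1 had log2 fold changes of 0.16, 0.03 and 0.21, with SEs of 0.29, 0.28 and 0.26. Nid1, the linker nidogen, had 0.38 (SE 0.26). Lama2 had 0 to 4 counts a library and was not tested.

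Among proteases 0 of the 4 tested genes were called, and none had an unadjusted edgeR p under 0.05 or was called by DESeq2 or limma-voom. Mmp14, a membrane-bound metalloproteinase that activates the protease Mmp2, had 69.2, 61.5 and 62.1 CPM in the DIO libraries and 62.7, 57.0, 67.4, 52.2 and 61.4 CPM in the DIO + DHA libraries. Its log2 fold change of -0.08 had a 95% interval from -0.27 to 0.11. Adamts1 and Adamts2, the second a procollagen processing enzyme, had log2 fold changes of -0.23 (SE 0.24) and 0.24 (SE 0.26).

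The counting itself limited 3 of these genes. Mmp2, a gelatinase, had a count of 0 in all 8 libraries, which allows up to 0.0914 CPM over 32809943 counts. In the deposited annotation all of the last 500 exon bases of Mmp2 also belong to an antisense long non-coding RNA. The same holds for Mmp19, whose 3′ end lies under the antisense gene Tmem198b and a non-coding RNA, and for Timp3, whose exons are shared with the antisense gene Syn3. Reads in such stretches were left out by unstranded counting of 3′-enriched cDNA. The counts of these genes are therefore uncertain. Mmp19 had 9.92 to 23.1 CPM and 7.42 to 16.8 CPM, and Timp3 had 1 to 10 counts a library.

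Of 3 TIMP genes, Timp1 was called lower in the DIO + DHA group, from very few counts. It passed the filter only through the DIO group, where it was higher, since every DIO + DHA count was under 5. Its place among the tested genes thus depended on the direction that the test then reported. Timp1 encodes a secreted inhibitor that is induced in injured and inflamed liver. The gene (ENSMUSG00000001131.12, GRCm39 chrX:20736405-20740974, plus strand) had 3, 7 and 7 counts in the DIO libraries and 2, 0, 1, 1 and 2 counts in the DIO + DHA libraries. These are 1.69, 1.26 and 1.24 CPM against 0.397, 0, 0.357, 0.234 and 0.437 CPM, so the groups did not overlap. The log2 fold change was -2.01 (SE 0.67, 95% interval -3.35 to -0.67, edgeR adjusted p = 0.0302). The call was lost without DIO replicate 1, 4 or 5 (adjusted p = 0.099, 0.102 and 0.107) and without DIO + DHA replicate 2 or 5 (adjusted p = 0.0704 and 0.061), with a range from 0.025 to 0.14 over all alternatives. With no filter on low counts the call of Timp1 was lost too. Timp2 had 10.1, 14.1 and 14.9 CPM and 13.9, 15.8, 17.5, 16.9 and 9.17 CPM, with overlap (log2 fold change 0.07, 95% interval -0.29 to 0.43). Timp3 had a log2 fold change of -0.56 (SE 0.52).

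The lysyl oxidases were close to the detection limit. Lox had 0 counts in the DIO libraries and 3, 0, 1, 2 and 1 counts in the DIO + DHA libraries, and was not tested. Loxl1 had 0.563, 0.902 and 1.42 CPM and 1.19, 2.68, 2.14, 3.51 and 2.40 CPM (log2 fold change 1.11, SE 0.47, edgeR adjusted p = 0.104), and Loxl2 had 1.69, 2.52 and 1.77 CPM and 0.793, 1.34, 0.714, 1.41 and 1.75 CPM (log2 fold change -0.75, SE 0.45, edgeR adjusted p = 0.305). Neither passed the test. Tgfb1, the main TGF-beta ligand, had 8.44, 6.85 and 9.40 CPM and 7.74, 6.70, 5.71, 7.96 and 5.24 CPM, with overlap (log2 fold change -0.28, SE 0.22). Pdgfrb, the platelet-derived growth factor receptor of stellate cells and pericytes, had 2.52 to 5.06 CPM and 2.38 to 5.35 CPM (log2 fold change -0.08, SE 0.32).

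The depth behind each gene set what could be seen. On the log2 scale, the median SE was 0.12 in the 15 matrix genes that averaged 10 CPM or more, and 5 of them were called. The 29 tested genes below 10 CPM had a median SE of 0.29, and 1 was called. The share called among all tested genes of either depth was not counted, so these counts have no background. In the deeper class the median coefficient of variation between libraries was 9.28% in the DIO and 9.62% in the DIO + DHA group. Counting alone, at the mean count of each group and equal depth, would give 8.08% and 8.53%. Depth was unequal within the groups, which raises the part due to counting. No excess over counting can therefore be read from these values. Of the 38 genes not called, the 95% interval stayed within 1.0 on the log2 scale for 28 and within 0.5 for 6. Of the 12 collagens not called it stayed within 1.0 for 8 and within 0.5 for 1.

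Promoter sequences are shown for the called genes Bgn, Tgfbi and Timp1, which were lower together and which the RefSeq promoter table (GRCm38.p6) held. Fn1, Spon2 and Col14a1 had no entry. The table's bases before the annotated start were matched letter for letter to GRCm39, and any base in an annotated exon there was left out, which gave chrX:72526957-72527206 for Bgn, chr13:56757149-56757335 for Tgfbi and chrX:20736155-20736315 for Timp1, all on the plus strand and written 5′ to 3′. Capitals mark GC boxes (GGGCGG, on either strand, with overlapping matches counted), which bind factors of the Sp and KLF families.
Bgn: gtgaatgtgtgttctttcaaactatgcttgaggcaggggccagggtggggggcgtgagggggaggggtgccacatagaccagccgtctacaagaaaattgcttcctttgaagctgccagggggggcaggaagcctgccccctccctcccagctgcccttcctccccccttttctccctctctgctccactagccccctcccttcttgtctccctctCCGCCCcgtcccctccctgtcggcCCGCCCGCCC
Tgfbi: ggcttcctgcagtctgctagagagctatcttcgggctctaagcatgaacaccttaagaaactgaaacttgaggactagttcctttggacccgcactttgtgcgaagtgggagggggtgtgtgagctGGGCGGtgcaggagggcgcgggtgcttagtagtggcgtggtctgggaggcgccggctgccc
Timp1: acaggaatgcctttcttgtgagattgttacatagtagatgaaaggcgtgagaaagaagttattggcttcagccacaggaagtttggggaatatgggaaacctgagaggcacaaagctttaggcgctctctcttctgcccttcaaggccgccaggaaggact

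Over the whole 250 bases before the RefSeq start, Bgn held 3 GC boxes, Tgfbi held 1 with its first base 124 bases before the start, and Timp1 held 1 with its first base 8 bases before it, past the stretch printed here. Of 32851 windows of this length in the table, 32.7% held the motif. The AP-1 motif (TGANTCA, both strands) was in none of the 3 windows and in 6.75% of all. These are matches of letters and are given as a description.

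Genes that act on the matrix were counted in 5 further lists. In the TGF-beta list, 24 of 29 genes were tested, 3 were called higher and none lower. These are 12.5% of the tested genes of the list, against 15.2% of all tested genes called either way and 7.89% called higher. Id1, an inhibitor of DNA binding that is a known target of the related bone morphogenetic proteins, had 12.4 to 14.8 CPM in the DIO libraries and 30.7 to 42.9 CPM in the DIO + DHA libraries (log2 fold change 1.35, SE 0.14, edgeR adjusted p = 1.8e-11). Inhba, the activin A subunit, had 2.25 to 4.51 CPM and 6.12 to 9.38 CPM (1.07, SE 0.26, edgeR adjusted p = 0.00188), and Id3 had 50.2 to 56.3 CPM and 61.9 to 79.7 CPM (0.42, SE 0.10, edgeR adjusted p = 0.00133). All 3 rose with no overlap. These rises came in the libraries with higher sums of muscle, squamous and adipocyte markers, and the part of those tissues was not tested. The genes of the list with the largest CPM, Id2 (0.49, SE 0.23) and Inhbe (-0.08, SE 0.08), were not called. The median log2 fold change of the tested genes was 0.09, and 5 were called without DIO replicate 1 or without DIO replicate 5.

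In the list of collagen folding and processing, 17 of 22 genes were tested and 2 were called, in opposite directions, which is 11.8% against 15.2% over all tested genes. P4hb, a subunit of prolyl hydroxylase and a general disulfide isomerase, rose by 0.25 on the log2 scale, with means and SDs of 514 ± 11.7 and 612 ± 29.5 CPM in 3 and 5 libraries (SE 0.07, edgeR adjusted p = 0.0043). Bmp1, a procollagen C-proteinase, had 73.1 to 104 CPM and 66.8 to 77.8 CPM (-0.30, SE 0.09, edgeR adjusted p = 0.015). Mia3, which loads procollagen into transport vesicles, was not called (-0.17, SE 0.09). The list had 14 values below 0 and 3 above, with a median of -0.26. P3h3, below 0, passed the filter only through the DIO group, and Loxl4, above 0, only through the DIO + DHA group. Without DIO replicate 4, 1 gene was called.

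In the list of other proteases and inhibitors, 13 of 30 genes were tested, 3 were called lower and none higher. This is 23.1% of 13 genes, against 15.2% of all tested genes called either way and 7.28% called lower. The lysosomal cysteine protease Ctss had 102 to 123 CPM in the DIO libraries and 46.1 to 56.6 CPM in the DIO + DHA libraries (-1.08, SE 0.09, edgeR adjusted p = 1.5e-14). Ctsb, another lysosomal protease, had 1105 to 1249 CPM and 802 to 944 CPM (-0.42, SE 0.06, edgeR adjusted p = 7.3e-07), and Mmp12, the macrophage metalloelastase, had 4.44 to 5.59 CPM and 0.874 to 2.81 CPM (-1.69, SE 0.35, edgeR adjusted p = 0.00021). The libraries of the groups did not overlap for any of these 3. Ctsl, a further lysosomal protease, was not called (-0.02, SE 0.07). The Kupffer cell and macrophage markers were lower in the same libraries, 502 to 537 CPM against 870 to 974 CPM, and their part in these values was not tested.

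In the list of matrix receptors, 17 of 24 genes were tested, 4 were called lower and none higher, with a median log2 fold change of -0.24. The 4 are 23.5% of the tested receptors, against 15.2% of all tested genes called either way and 7.28% called lower. Lyve1, a hyaluronan receptor of sinusoidal and lymphatic endothelium, had 23.2 to 27.6 CPM and 6.78 to 15.1 CPM (-1.08, SE 0.16, edgeR adjusted p = 2.7e-07). The heparan sulfate proteoglycan Sdc4 had 564 to 853 CPM and 444 to 501 CPM (-0.52, SE 0.09, edgeR adjusted p = 0.00057). The integrin chains Itga9 (-0.60, SE 0.16, edgeR adjusted p = 0.00541) and Itgb3 (-0.79, SE 0.27, edgeR adjusted p = 0.0382) fell too, while the syndecan Sdc1 was not called (-0.02, SE 0.08). Without DIO replicate 5, 2 genes of the list were called. The sinusoidal endothelial markers, to which Lyve1 belongs, were also lower in sum (201 to 235 CPM against 263 to 280 CPM), and their part was not tested.

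In the list of other matrix proteins, 24 of 46 genes were tested, 5 were called higher and 4 lower, together 37.5% against 15.2% of all tested genes. Mfap5, Aspn, Fbln2 and Mgp, called higher, passed the filter only through the DIO + DHA group. Matn2, called lower, passed it only through the DIO group. The 37.5% therefore rests in part on genes let in by the group where they were higher. Lamb3, a laminin chain of epithelial anchorage to the basement membrane, had 8.44 to 10.3 CPM in the DIO libraries and 47.8 to 55.7 CPM in the DIO + DHA libraries, a rise of 2.45 on the log2 scale (SE 0.14, edgeR adjusted p = 8.6e-22). Mfap5 and Aspn, proteins of microfibrils and of dense connective tissue, had 0 counts in the DIO libraries and 26 and 24 in the DIO + DHA libraries, at least 5.71-fold and 5.27-fold higher against a floor of 3 counts over the group. Fbln2 (1.71, SE 0.46, edgeR adjusted p = 0.00564) and Mgp (2.27, SE 0.53, edgeR adjusted p = 0.00137) had 11 and 8 counts over the DIO libraries and 56 and 62 over the DIO + DHA libraries. These rises came in the libraries with higher sums of muscle, squamous, adipocyte and portal fibroblast markers (Fbln2 is on the last of these lists), and the part of those tissues was not tested.

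The 4 genes of this list called lower were Vtn, Emilin1, Prelp and Matn2. Vtn, the plasma and matrix glycoprotein vitronectin made by hepatocytes, had a log2 fold change of -0.24 (SE 0.07, edgeR adjusted p = 0.0118) with overlap between groups. Emilin1, an elastic fibre glycoprotein, had 18.0 to 23.1 CPM and 12.7 to 15.3 CPM (-0.56, SE 0.15, edgeR adjusted p = 0.00422). Prelp, a small leucine-rich proteoglycan (-0.36, SE 0.12), and Matn2, a matrilin (-1.66, SE 0.52), had fewer counts or overlapping groups. Spp1, osteopontin, was not called (-0.04, SE 0.10). Without DIO replicate 5, 5 genes of the list were called in place of 9.

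**Figure D5:**
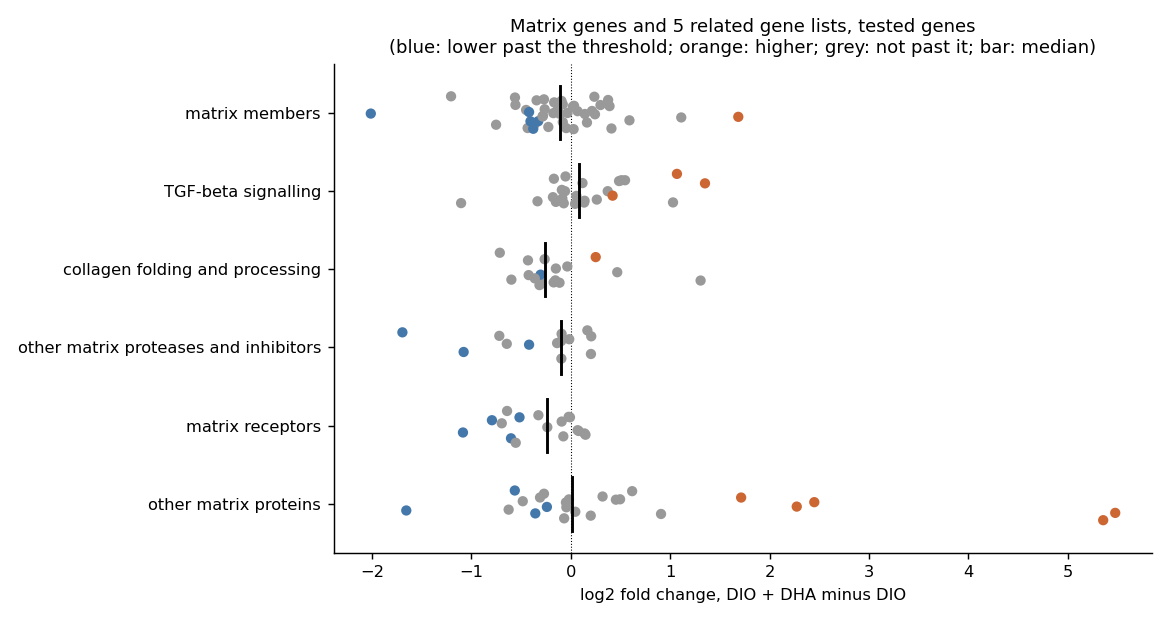
Log2 fold change, DIO + DHA minus DIO, of the tested genes among the 48 matrix genes and 5 related lists, 1 point a gene, with a black bar at the median. Blue points were called lower, orange points called higher and grey points not called. Of all tested genes 15.2% were called, 7.89% higher and 7.28% lower. The TGF-beta list has 3 genes called higher and none lower (12.5%), the matrix receptor list 4 lower and none higher, and the list of other matrix proteins has calls in both directions.

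By the study's own criterion, a B statistic (log-odds of change) above 0 in limma-voom, 6.93% of all tested genes were called, and of the matrix genes only Fn1 (lower) and Spon2 (higher). These 2 were also called in every alternative tried.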

How the data were processed

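Liver RNA of 3 DIO and 5 DIO + DHA mice was measured, with a library for each mouse. The authors prepared 3′-enriched cDNA from poly(A) RNA by an adaptation of SCRB-seq, checked reads with FastQC 0.11.8, trimmed and aligned them to GRCm39 with STAR 2.7.9a, and counted them on GENCODE mouse release 33 exons with featureCounts 1.6.0. The deposited values are raw counts per gene. Strand was not used, multi-mapped reads were not counted, and a read that fell in exons of more than 1 gene was dropped. The sources do not tell if molecular identifiers were collapsed, so the floor for 0 counts covers counting error only. The 95% intervals of fold changes come from edgeR's fit and include the spread between mice. Groups and replicate numbers came from the labels, and p-values measure the spread between mice, whose cages the labels do not name.

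Coordinates came from the deposited tables. GENCODE mouse release 39 named 56323 of the 56884 identifiers and all 151 genes of the related lists. Counts were filtered as in the study's methods and scaled by TMM. The quasi-likelihood test of edgeR 4.0.16 (R 4.3.3) was fitted with robust dispersions, a common biological coefficient of variation of 0.0801, Benjamini-Hochberg adjustment over all tested genes and 95% intervals. The study's own test, limma-voom with B above 0 (limma 3.58.1, prior proportion 0.01), was an alternative. The other alternatives covered scaling, DESeq2 1.42.0, filters, thresholds, a replicate block and leaving out each library. The tests were tried on simulated counts.

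The members and lists were chosen with earlier results of these data known. All members are accounted for by role, with values in every library for called members and for those of each role with the largest CPM. Of each related list the 3 called genes with the smallest p and the 2 with the largest CPM are named, and further called genes were named after their values were seen. Quantitative PCR and histology were not analysed here.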

Additional observations from a re-analysis of the deposited data

Results flagged for a closer look

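In 3 of the 44 tested matrix genes, 1 library of the DIO + DHA group lay far from the other 4 by Dixon's ratio (critical value 0.71 for 5 libraries), and chance flags about 1 in 20 groups. Col3a1 was at 3.21 CPM (9 counts) in replicate 4, with the others at 5.02 to 5.62 CPM. Sparc was at 27.9 CPM (119 counts) in replicate 5, with the others at 36.5 to 40.0 CPM. Ecm1 was at 180 CPM (767 counts) in the same replicate 5, with the others at 158 to 161 CPM. None of the 3 genes was called by edgeR's test or in any alternative.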

How the results depend on the processing

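Of 8 counts and 44 log2 fold changes recomputed under up to 18 alternatives, no called fold change changed sign, and 35 of the 44 matrix genes were called in none. Spon2 stayed the 1 matrix gene called higher throughout. The number of matrix genes called lower, 5, became 2 with the DESeq2 Wald test, 1 with B above 0 and 2 at an adjusted p under 0.01. It was 2 to 5 when 1 library was left out (2 without DIO replicate 1 or 5, 3 without DIO + DHA replicate 5). Some of these counts include newly called genes. Without DIO replicate 5, Tgfbi, Bgn, Col14a1 and Timp1 were lost and Col4a1 was gained beside Fn1. Col6a3 was gained without DIO replicate 4, Col4a1 without DIO + DHA replicate 1 and Efemp1 without DIO + DHA replicate 6. Tgfbi was called in 15 of 18 alternatives, Bgn in 13, Col14a1 in 11 and Timp1 in 7 of 16. Col4a1, Efemp1 and Col6a3, not called in edgeR's test with TMM, were called in 5 of 18, 3 of 18 and 1 of 16. Over all genes, B above 0 called 860 and an adjusted p under 0.01 called 1225, against 1883, and leaving out 1 library gave 1432 to 1859. Scaling by library size alone shifted the median of all genes by -0.02 and split the calls into 904 higher and 961 lower, against 979 and 904.

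The related lists moved by a few genes. With 1 library left out, the TGF-beta list had 3 to 5 calls, collagen folding 1 to 3, other proteases 3 to 4, matrix receptors 2 to 4 and other matrix proteins 5 to 10. Collagen folding had 1 call with DESeq2, 0 with B above 0 and 1 at an adjusted p under 0.01. With B above 0, the receptors had 2 calls and other matrix proteins 3, and at least 10 counts in every library left other matrix proteins with 4, since fewer genes were tested. Except for that filter, the causes were not tested.

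The replicate numbers 1, 4 and 5 occur in both groups, but same-numbered libraries did not deviate together (correlations of -0.0133, -0.0135 and -0.0111), so they were not taken as pairs. With the replicate number as a block, 4 matrix genes were called lower (Fn1, Tgfbi, Bgn and Efemp1), 1 higher and 1538 genes in all, collagen folding had 1 call, and Col14a1 (adjusted p = 0.06) and Timp1 (adjusted p = 0.136) missed the threshold. At this depth, genes under 10 CPM allowed large changes to go unseen.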
